A study of Gallus gallus with 6 samples.

Results

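Cytosolic ribosomal proteins are the structural proteins of the ribosome, which translates messenger RNA in the cytoplasm. In abdominal fat taken from male Ross broilers, chickens bred for fast growth, 72 of the 15491 genes listed were taken as this family by their symbols alone: names that open with RPL or RPS and a number, RPLP0, RPLP1, RPLP2 and RPSA, without the S6 kinases. By their symbols they comprise 43 large subunit genes, 28 small subunit genes and RPS19BP1, whose product binds a ribosomal protein and is not one itself. The 43 include RPL7L1, a nucleolar relative of RPL7, which the symbol alone places in the large subunit. The heat stress group lived at 32 °C and the thermoneutral group at 22 °C (each ± 0.5 °C, 50% humidity) from day 21 to day 35 of age, and both groups sat in individual cages from day 14, under light for 24 h a day and on the same diet. Each group has 3 libraries, made with the TruSeq stranded mRNA kit. The labels do not say that each library is 1 chicken, and the spread behind every p-value is that between libraries, which may be technical. RPS9, RPS18, RPS19, RPL10, RPL13A, RPL18, RPL26, RPL28 and RPL41 were not analysed here.

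Each ribosome needs 1 copy of nearly every such protein, built on ribosomal RNA into a small subunit, which reads the mRNA, and a large subunit, which joins amino acids. The mRNAs are among the most abundant of a cell, and most carry a terminal oligopyrimidine tract at the start that places their translation under the kinase mTOR. Ribosomal protein production follows growth and nutrient supply in vertebrate cells.

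Total counts were 38336086 to 45163458 per library in heat stress and 30673333 to 35836632 in thermoneutral fat, with every heat stress library the deeper. Adipocyte markers were present in every library: the 14 on the list (PPARG, ADIPOQ, FABP4, PLIN1 and others) summed to 27842, 25468 and 29240.2 CPM in heat-stressed fat and 25209, 21433 and 28651 CPM in thermoneutral fat, where CPM is a count per 1000000 of the library total after scaling by TMM (trimmed mean of M values). On the first principal component of log2 CPM, thermoneutral 2 had the lowest value (-53.3, the others -24.9 to 36.8), so the count of lower members is also given without it.

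The mRNAs of the ribosome were lower in heat-stressed fat almost without exception. All 71 genes placed in a subunit by symbol had a negative log2 fold change of heat stress over thermoneutral. Of the 14743 genes tested 50.6% were below 0. The median over the 72 was -0.37, which is 22.6% lower, against -0.0045 over all genes tested. The single gene above 0 was RPS19BP1. The middle of the family was narrow, with quartiles of -0.41 and -0.29, while the quartiles of all genes tested were -0.21 and 0.19.

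The differences were small for single genes, and edgeR's quasi-likelihood test with Benjamini-Hochberg adjustment over all genes passed 0 of 72 at an FDR of 0.05. With limma, voom also passed 0 members, and of all genes it passed 27, 19 of them higher. On log2(TPM + 1) limma passed 1 member, RPL22L1 (1.25% of genes higher, 0.122% lower). In all, edgeR passed 26 genes, 9 of them lower (0.061% of genes tested) and 17 higher (0.115%). RPL37 and RPS21 came nearest, each at edgeR FDR = 0.0518, and 25 members stood below 0.10, all of them lower. Of the 14743 genes tested 687 stood below 0.10, and 274 of these were lower. At an unadjusted p under 0.05 there were 60 members lower and 0 higher, where 9.2% of all genes tested were lower and 9.56% higher. Without thermoneutral 2 these were 59 lower members, and with any 1 library left out 48 to 60. The share of all genes was not worked out for the fits that leave 1 library out. DESeq2 at an adjusted p under 0.05 called 53 members lower and 0 higher, against 4.09% and 5.09% of all genes with an adjusted p. In the authors' deposited table the same threshold gave 53 lower and 0 higher. Its log2 fold changes lay within 6.63e-05 of DESeq2 at default settings, so the table is not independent of that fit. With a filter of 1 CPM in all 6 libraries edgeR called 5 members, all lower (0.756% of genes higher, 0.337% lower), and with library totals in place of TMM it called 2, both lower (0.543% higher, 0.129% lower). In that last fit 80 genes in all were higher and 19 lower.

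In 65 of 72 members every heat stress library was below every thermoneutral library in CPM, a pattern found in 12.4% of all genes tested. The other 7 members overlapped between groups: RPS15, RPS13, RPS27, RPS29, RPL7L1, RPS27L and RPS19BP1. No member had the opposite separation, which 12.6% of genes showed. In the deposited TPM, 56 members were lower without overlap, against 6.95% of genes tested, and 0 higher, against 21.3%. In bulk tissue, fewer cells of a type rich in ribosomes and less of these mRNAs per cell cannot be told apart.

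**Figure D1:**
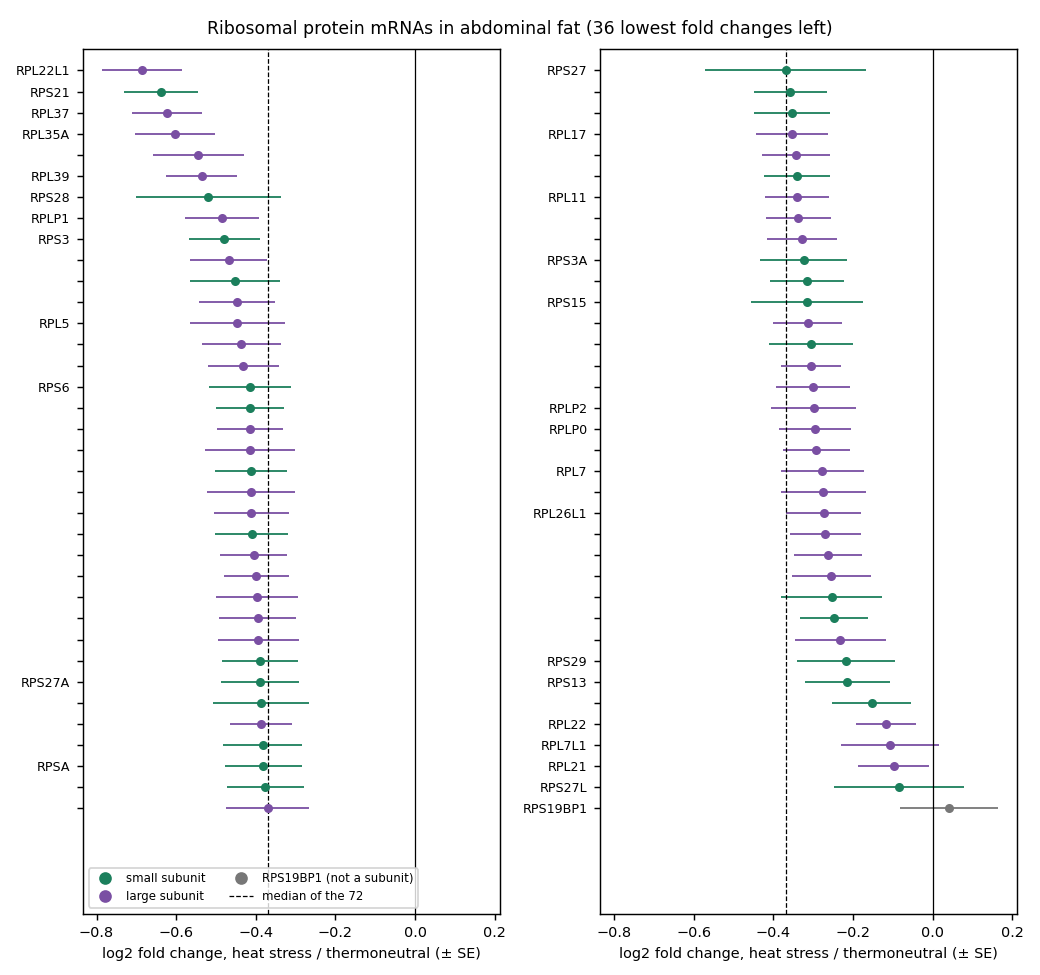
Log2 fold change of heat stress over thermoneutral (x axis, ± SE, 3 libraries each) for the 72 members, sorted from the lowest, with the 36 lowest on the left and names for those described in the text. Small subunit genes are green, large subunit genes purple and RPS19BP1 grey. RPL22L1 is lowest at -0.69, the dashed line marks the median of -0.37, and RPS19BP1 alone lies above 0.

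The share of all counts in the family needs no scaling factor between libraries. The 72 genes took 2.68%, 2.56% and 2.46% of counts in the heat stress libraries, against 3.17%, 3.37% and 3.19% in the thermoneutral libraries. The groups did not overlap, and the mean share was 2.57% ± 0.107 in heat stress and 3.24% ± 0.111 in thermoneutral fat (SD, n = 3 each), a ratio of 0.792. The 95% Wilson intervals of single libraries reached at most 0.0064 percentage points to each side, and such intervals cover counting error only. Heat stress 1 was the highest of the heat stress libraries and thermoneutral 2 the highest of the thermoneutral ones. In TPM, the abundance the authors scaled for length and depth, the family made up 8.32%, 8.06% and 7.70% of the total in heat stress and 9.43%, 9.80% and 9.60% in thermoneutral fat.

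Gene by gene the difference was present in all 3 heat stress libraries and smallest in heat stress 1. On log2(CPM + 0.5) relative to the thermoneutral mean, the median member stood at -0.29, -0.39 and -0.40 in heat stress 1, 2 and 3, against 0.018, 0.0011 and -0.010 in thermoneutral 1, 2 and 3. In each heat stress library 71 of 72 members were below their thermoneutral mean. The median of all genes tested stayed between -0.0063 and 0.0041 in the same libraries. TMM centres most genes and the thermoneutral mean is the reference, so these and the thermoneutral medians lie near 0 by construction. With library totals in place of TMM the median log2 fold change was 0.018 over all genes and -0.34 over the members.

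**Figure D2:**
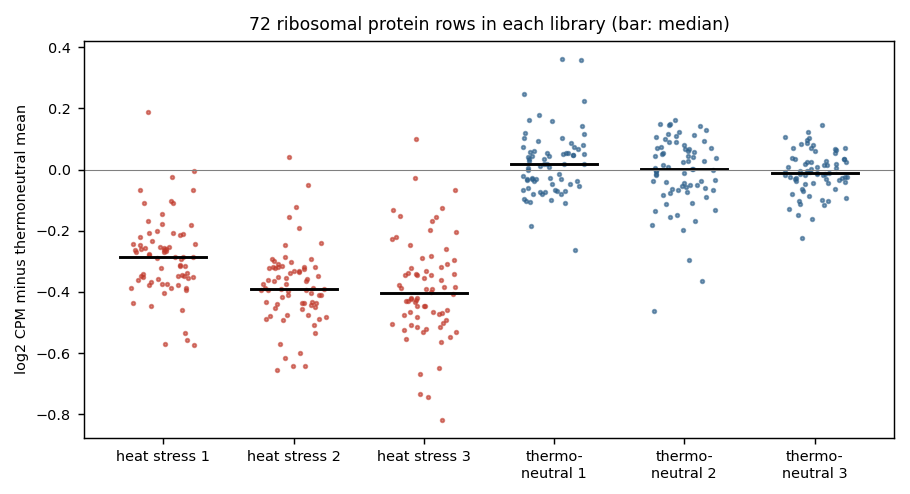
Each point is 1 of the 72 members in 1 library, as log2(CPM + 0.5) minus that gene's thermoneutral mean (y axis), with a bar at the median. The heat stress medians lie at -0.29, -0.39 and -0.40, and the thermoneutral medians lie within 0.018 of 0.

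By their medians both subunits were lower to a similar degree. The median log2 fold change was -0.37 over the 28 small subunit genes and -0.37 over the 43 large subunit genes, with ranges of -0.64 to -0.084 and -0.69 to -0.098. Of the 43 large subunit genes, 39 were lower at an unadjusted p under 0.05 and 42 were lower without overlap between groups. For the 28 small subunit genes these counts were 21 and 23, a smaller part. Over all genes tested the shares were 9.2% and 12.4%. Summed TPM of the small over the large subunit was 0.639, 0.644 and 0.623 in heat stress libraries and 0.649, 0.624 and 0.635 in thermoneutral libraries. The ranges overlap, and the mean ratio was 0.635 ± 0.011 in heat stress and 0.636 ± 0.013 in thermoneutral fat (SD, n = 3 each).

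Among large subunit genes RPL37, RPL22L1 (described below), RPL39 and RPL35A had the smallest p in edgeR. RPL37 (gene ID 427186), a small zinc-binding protein, had 216, 215 and 190.1 CPM in heat-stressed fat, against 326, 316 and 314 CPM in thermoneutral fat. The groups were far apart, with 190.1 to 216 CPM below 314 to 326 CPM (log2 fold change -0.62 ± 0.088 SE, edgeR FDR = 0.0518). RPL39 (gene ID 374132), which lines the tunnel through which the new protein leaves, had 269, 235 and 256 CPM in heat-stressed fat, against 379, 363 and 361 CPM in thermoneutral fat. It was 31.0% lower with no overlap (log2 fold change -0.54 ± 0.089 SE, edgeR FDR = 0.0573). RPL35A (gene ID 424924), one of the genes mutated in the human anaemia named after Diamond and Blackfan, had 194, 174 and 160.1 CPM in heat-stressed fat, against 269.9, 250.4 and 280.1 CPM in thermoneutral fat. All heat stress values lay below the lowest thermoneutral one (log2 fold change -0.60 ± 0.10 SE, edgeR FDR = 0.0573).

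The stalk of the large subunit recruits the elongation factors and consists of RPLP0 as the base with RPLP1 and RPLP2 as flexible arms. RPLP1 (gene ID 396262) had 377, 336 and 331 CPM in heat-stressed fat, against 474, 496 and 489.7 CPM in thermoneutral fat. It was 28.5% lower, with no overlap (log2 fold change -0.48 ± 0.092 SE, edgeR FDR = 0.0675). RPLP0 (gene ID 395835) had 569, 539.5 and 508 CPM in heat-stressed fat, against 667, 658 and 659 CPM in thermoneutral fat, again without overlap (log2 fold change -0.29 ± 0.091 SE, edgeR FDR = 0.159). RPLP2 (gene ID 426492) was lower in heat stress with heat stress 3 nearest to the thermoneutral range, at 332, 322 and 381 CPM in heat-stressed fat, against 393, 453 and 426 CPM in thermoneutral fat (log2 fold change -0.30 ± 0.11 SE, edgeR FDR = 0.202). RPLP0 is often used as a reference gene in PCR work, and in these libraries it was 18.5% lower in heat stress.

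RPL5 and RPL11 bind the ribosomal RNA of the central protuberance and, when free of the ribosome, inhibit MDM2, the ubiquitin ligase of p53. Both were picked for that role after the values were seen. RPL5 averaged 748 ± 34.8 CPM in heat-stressed fat and 1019 ± 122 CPM in thermoneutral fat (SD, n = 3 each), a log2 fold change of -0.45 ± 0.12. RPL11 averaged 335 ± 3.52 CPM in heat-stressed fat and 423 ± 10.9 CPM in thermoneutral fat, a log2 fold change of -0.34 ± 0.08. The groups did not overlap for either gene, and neither passed (edgeR FDR = 0.12 and 0.0946).

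In the small subunit RPS21 and RPS3 had the smallest p. RPS21 (gene ID 419228) had 70.5, 66.6 and 65.9 CPM in heat-stressed fat, against 109, 113 and 93.7 CPM in thermoneutral fat. The heat stress libraries were tight and 35.8% lower on the fitted scale (log2 fold change -0.64 ± 0.093 SE, edgeR FDR = 0.0518). RPS3 (gene ID 419069), which sits where the mRNA enters and also acts in DNA repair, had 398, 385 and 377 CPM in heat-stressed fat, against 529, 573 and 516 CPM in thermoneutral fat. Here too the groups did not overlap (log2 fold change -0.48 ± 0.089 SE, edgeR FDR = 0.0659).

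RPS6 (gene ID 396148) is the substrate of the S6 kinases downstream of mTOR and 1 of the 3 most abundant members per length. It had 907, 881 and 806 CPM in heat-stressed fat, against 1090.2, 1202 and 1166 CPM in thermoneutral fat, lower in every heat stress library (log2 fold change -0.41 ± 0.10 SE, edgeR FDR = 0.103). RPSA (gene ID 395181), also known as the laminin receptor, had 626, 575 and 560.1 CPM in heat-stressed fat, against 729, 762 and 802 CPM in thermoneutral fat. Its groups did not overlap (log2 fold change -0.38 ± 0.10 SE, edgeR FDR = 0.11). RPS27A (gene ID 395796), made as a fusion with ubiquitin, had 283, 246 and 238 CPM in heat-stressed fat, against 347, 326 and 331 CPM in thermoneutral fat. It was 23.7% lower, without overlap (log2 fold change -0.39 ± 0.10 SE, edgeR FDR = 0.105). RPS3A (gene ID 422477), a platform protein of the small subunit, had 943, 907 and 866 CPM in heat-stressed fat, against 1069, 1254 and 1077 CPM in thermoneutral fat, with thermoneutral 2 the highest (log2 fold change -0.32 ± 0.11 SE, edgeR FDR = 0.185).

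**Figure D3:**
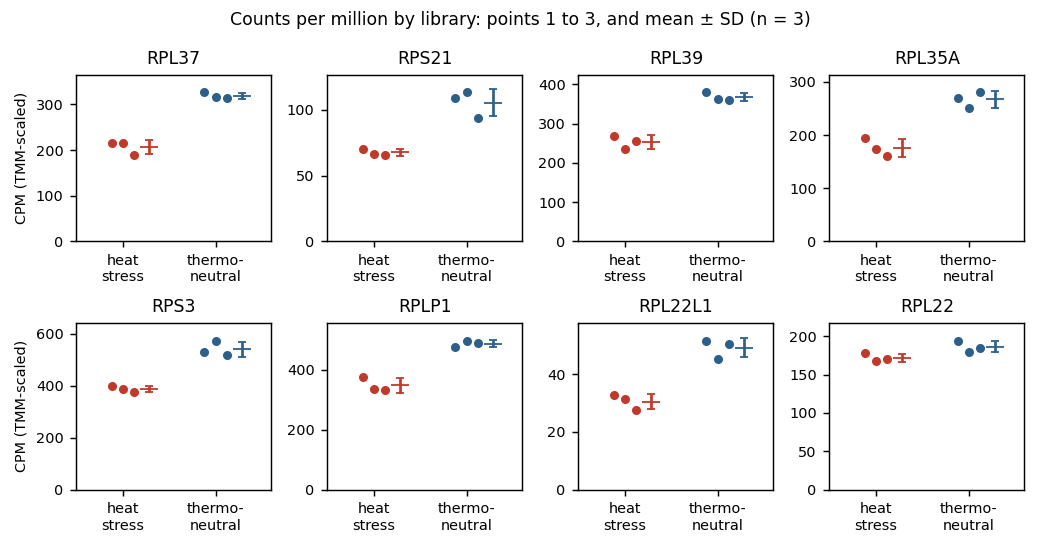
CPM (y axis, from 0) in each of the 3 libraries of heat stress (red) and thermoneutral fat (blue), with the mean ± SD beside them, for 8 members. RPL37 reads 190.1 to 216 CPM in heat stress and 314 to 326 CPM in thermoneutral fat, and RPL22L1 and RPL22 differ in the size of their gap.

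Few subunit genes differed little. RPL21 (gene ID 418933), the most abundant member per length, had 736, 725 and 754 CPM in heat-stressed fat, against 774, 812 and 786 CPM in thermoneutral fat. Its groups did not overlap but were close, with a fold change near its error (log2 fold change -0.10 ± 0.088 SE, edgeR FDR = 0.605). In TPM it averaged 2666 ± 15.3 TPM in heat-stressed fat and 2674 ± 98.7 TPM in thermoneutral fat. RPL22 (gene ID 373937), an RNA-binding protein that mice can largely do without, had 178, 167 and 171 CPM in heat-stressed fat, against 194, 179.8 and 185 CPM in thermoneutral fat. It was 7.78% lower (log2 fold change -0.12 ± 0.076 SE, edgeR FDR = 0.463).

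Some ribosomal proteins have a close relative encoded by another gene. The table holds 3 such pairs: RPL22L1 with RPL22, RPL7L1 with RPL7 and RPS27L with RPS27. RPL22L1 (gene ID 100858296) had 32.8, 31.3 and 27.6 CPM in heat-stressed fat, against 51.6, 45.4 and 50.4 CPM in thermoneutral fat. It had the lowest log2 fold change of the family, 37.8% lower with no overlap (log2 fold change -0.69 ± 0.10 SE, edgeR FDR = 0.0536). As a percentage of RPL22 in CPM, RPL22L1 was 18.4%, 18.7% and 16.2% in heat stress, against 26.6%, 25.3% and 27.2% in thermoneutral fat. The log2 ratio of RPL22L1 to RPL22 differed by -0.57 without overlap (exact two-sided permutation test, p = 0.1, the smallest that 3 against 3 allow, and 0.3 adjusted over the 3 pairs). In the mouse, RPL22 represses RPL22L1.

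The other pairs did not separate. RPL7L1 (gene ID 422676), a nucleolar relative of RPL7, had 75.4, 69.2 and 77.6 CPM in heat-stressed fat, against 65.8, 87.2 and 86.1 CPM in thermoneutral fat, and the groups overlapped (log2 fold change -0.11 ± 0.12 SE, edgeR FDR = 0.694). Its log2 fold change was -0.23 without thermoneutral 1, -0.045 without thermoneutral 2, -0.047 without thermoneutral 3 and -0.058 without heat stress 2. RPL7 (gene ID 420182) had 689, 620.1 and 612 CPM in heat-stressed fat, against 799, 812 and 717 CPM in thermoneutral fat, without overlap (log2 fold change -0.28 ± 0.10 SE, edgeR FDR = 0.215). Their log2 ratio differed by 0.18 (exact permutation test, p = 0.4, adjusted 0.4). RPS27L (gene ID 415372), a p53 target in human cells, had 14.4, 10.02 and 11.3 CPM in heat-stressed fat, against 13.1, 12.1 and 12.7 CPM in thermoneutral fat, and its groups overlapped (log2 fold change -0.084 ± 0.16 SE, edgeR FDR = 0.825). RPS27 (gene ID 107055140) had 115, 93.3 and 102 CPM in heat-stressed fat, against 167, 94.4 and 139.9 CPM in thermoneutral fat, with thermoneutral 2 inside the heat stress range (log2 fold change -0.37 ± 0.20 SE, edgeR FDR = 0.38). Its log2 fold change was -0.57 without thermoneutral 2 and -0.18 without thermoneutral 1. The log2 ratio of RPS27L to RPS27 differed by 0.23 (exact permutation test, p = 0.4, adjusted 0.4). RPS19BP1 (gene ID 418011), the binding partner of RPS19, had 15.1, 15.6 and 16.3 CPM in heat-stressed fat, against 17.2, 14.6 and 13.8 CPM in thermoneutral fat, with full overlap (log2 fold change 0.042 ± 0.12 SE, edgeR FDR = 0.887).

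Ribosomal protein genes often have near-identical copies, so a member's reads may be shared with another gene. Besides RPL17, 2 further genes are described as L17 proteins of the large subunit. RPL17 had 539, 504 and 482 CPM in heat-stressed fat, against 658, 653 and 637 CPM in thermoneutral fat (log2 fold change -0.35 ± 0.091 SE, edgeR FDR = 0.112). One copy, LOC107049046, had 1.10, 3.15 and 1.34 CPM in heat stress and 0.767, 0.764 and 0.768 CPM in thermoneutral fat. It was higher in heat stress without overlap (log2 fold change 1.28 ± 0.46 SE, edgeR FDR = 0.202). The other, LOC107055485, had 1 to 42 counts per library and was not tested. RPL26L1 is listed without RPL26 and averaged 291 ± 13.1 CPM in heat-stressed fat and 351 ± 27.8 CPM in thermoneutral fat (log2 fold change -0.27 ± 0.10).

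Per length the family spanned a wide range of levels. In mean TPM over all libraries, 68 of 72 members stood at 300 or more and the median was 1255, against 14.6 over all genes tested. The family held 37 of the 100 most abundant genes. RPL21, RPS3A and RPS6 were the highest, and RPS6 averaged 2059.6 ± 148 TPM in heat-stressed fat and 2564 ± 162 TPM in thermoneutral fat (SD, n = 3 each). RPS3A averaged 2146 ± 110.0 TPM in heat-stressed fat and 2509.9 ± 253 TPM in thermoneutral fat, and the SDs of RPS3A and RPS6 overlap. The 4 members under 200 TPM were RPL22L1, RPL7L1, RPS27L and RPS19BP1. RPL22L1 averaged 124 ± 12.0 TPM in heat-stressed fat and 186 ± 10.9 TPM in thermoneutral fat, and RPL7L1 averaged 104 ± 4.16 TPM in heat-stressed fat and 105 ± 17.3 TPM in thermoneutral fat. RPS27L averaged 38.9 ± 7.16 TPM in heat-stressed fat and 38.5 ± 1.04 TPM in thermoneutral fat, and RPS19BP1, the lowest, averaged 33.7 ± 1.2 TPM in heat-stressed fat and 30.5 ± 3.08 TPM in thermoneutral fat.

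The order of levels was almost the same in both groups. Across the 72 members, log2 mean TPM of heat stress and thermoneutral fat correlated at Pearson r = 0.994 and Spearman rho = 0.989, as a description across genes that share their libraries. The log2 fold change showed no trend with level across members (Spearman rho = 0.014, n = 72 genes). Ribosomal protein mRNAs are short, so length was looked at too. By the ratio of counts to TPM, 71 members were in the shortest of 4 equal bins of genes, whose median log2 fold change was -0.025 against -0.37 for those members. In that bin 10.2% of genes were lower at an unadjusted p under 0.05. Both values of the bin include the 71 members, and they were not worked out without them.

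**Figure D4:**
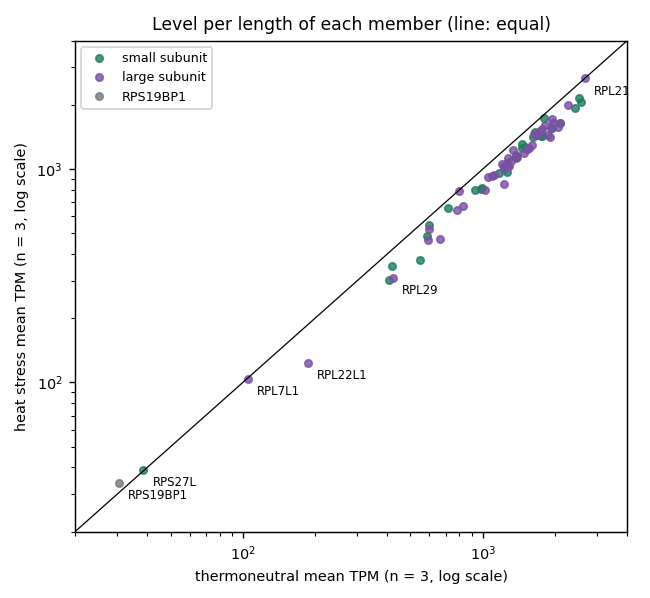
Mean TPM in heat stress (y axis) against mean TPM in thermoneutral fat (x axis), both on log scales, for the 72 members (n = 3 each). Nearly all points lie just below the line of equal level. RPL21 lies almost on it, RPS19BP1 above it, and RPL22L1 lies farthest below it.

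Members varied little between libraries of a group. The median coefficient of variation in CPM was 5.64% in heat stress and 5.65% in thermoneutral fat, against 12.6% and 13.2% over all genes tested. The median level was 1255 TPM for members and 14.6 TPM for all genes tested. No set of genes at a like level was compared, here or for the groups that did not overlap. The widest were RPS27 and RPS28, picked for their spread, at 27.4% and 25.1% in thermoneutral fat. RPS28, a protein of the mRNA exit site, had 58.5, 56.6 and 48.6 CPM in heat-stressed fat, against 98.6, 59.5 and 76.7 CPM in thermoneutral fat. Thermoneutral 1 was the highest and thermoneutral 2 the lowest for both genes.

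Genes that serve the ribosome without being part of it were not lower as a rule. Of 71 ribosome biogenesis factors tested, 39 were below 0 and 32 above, with a median log2 fold change of -0.04 and 0 past the FDR in edgeR. At an unadjusted p under 0.05, 5 were lower and 1 higher (backgrounds 9.2% and 9.56%). DESeq2 called 3 lower and 1 higher (backgrounds 4.09% and 5.09%). The same backgrounds apply to each list below. SBDS, which releases EIF6 from the new large subunit, averaged 194 ± 12.8 CPM in heat-stressed fat and 142 ± 4.12 CPM in thermoneutral fat (log2 fold change 0.45 ± 0.082 SE, edgeR FDR = 0.0652). DKC1, the pseudouridine synthase of ribosomal RNA, averaged 57.8 ± 5.75 CPM in heat-stressed fat and 80.03 ± 6.47 CPM in thermoneutral fat (log2 fold change -0.47 ± 0.10 SE, edgeR FDR = 0.0862).

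The list of RNA polymerase I, which makes ribosomal RNA, also holds factors that act with it and subunits shared with other RNA polymerases. Its 16 genes tested had a median of -0.04, with 0 past the FDR in edgeR and 1 lower in DESeq2. There were 2 lower and 0 higher at an unadjusted p under 0.05. Those 2 were TAF1D, an initiation factor of the enzyme (-0.42 ± 0.10), and its catalytic subunit POLR1A (-0.29 ± 0.087). Chaperones and importers of ribosomal proteins (10 tested) had a median of 0.031 and 0 past the FDR in edgeR, with 1 higher and 1 lower at an unadjusted p under 0.05 and 1 higher in DESeq2. That list includes RPS19BP1, which is also counted in the family. NAP1L1, a histone chaperone, stood at 0.55 ± 0.15 and the importin IPO5 at -0.30 ± 0.10. Ribosome quality control genes (18 tested) had a median of 0.0051 and 0 past the FDR in edgeR, with 1 higher at an unadjusted p below 0.05 and none called by DESeq2. DDRGK1 and EDF1, of ribosome UFMylation and collision sensing, stood at 0.24 ± 0.094 and 0.19 ± 0.093.

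Other mRNAs with a terminal oligopyrimidine tract leaned the same way. Of 24 tested, 21 were below 0 with a median of -0.17, and 0 passed the FDR in edgeR. At an unadjusted p under 0.05, 9 were lower and 2 higher (backgrounds 9.2% and 9.56%). DESeq2 called 7 lower and 2 higher (backgrounds 4.09% and 5.09%). The 2 higher in edgeR were NAP1L1 (0.55 ± 0.15) and VIM (0.50 ± 0.16). NACA, which escorts new proteins at the tunnel exit, averaged 199.6 ± 11.1 CPM in heat-stressed fat and 277 ± 6.03 CPM in thermoneutral fat (log2 fold change -0.47 ± 0.082 SE, edgeR FDR = 0.0582). EEF1B2, the exchange factor for elongation factor 1A, averaged 469 ± 15.2 CPM in heat-stressed fat and 682 ± 59.4 CPM in thermoneutral fat (log2 fold change -0.54 ± 0.10 SE, edgeR FDR = 0.0675). FAU, a fusion gene that encodes a ribosomal protein, averaged 183 ± 11.8 CPM in heat-stressed fat and 228 ± 4.97 CPM in thermoneutral fat, a log2 fold change of -0.32 ± 0.083. RACK1, a scaffold on the small subunit, stood at -0.16 ± 0.11. FAU and RACK1 were picked for their role.

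The list of elongation factors also holds related genes that are not such factors, among them EEF2K, EEF1AKMT1, EEF1E1, DPH1, DPH2 and DPH5. Its 14 genes tested, some of them also in the previous list, had a median of -0.051. It had 0 past the FDR in edgeR, 2 lower in DESeq2 and 2 lower at an unadjusted p below 0.05. Those 2 were EEF1B2 and EEF1A1, the carrier of aminoacyl-tRNA, which averaged 4423 ± 158 CPM in heat-stressed fat and 5741 ± 285 CPM in thermoneutral fat (log2 fold change -0.38 ± 0.13 SE, edgeR FDR = 0.18). Genes of mTOR signalling and translation control (31 tested) had a median of 0.11, 18 above 0 and 13 below, and 0 past the FDR in edgeR. At an unadjusted p under 0.05, 3 were higher and 3 lower, and DESeq2 called 1 higher and 2 lower. EIF4EBP1, a repressor of cap-dependent translation, averaged 139 ± 9.08 CPM in heat-stressed fat and 189 ± 5.27 CPM in thermoneutral fat (log2 fold change -0.45 ± 0.082 SE, edgeR FDR = 0.0652). RPTOR, the scaffold of mTOR complex 1, averaged 78.3 ± 4.06 CPM in heat-stressed fat and 61.6 ± 2.36 CPM in thermoneutral fat (log2 fold change 0.35 ± 0.077 SE, edgeR FDR = 0.0862).

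Markers of immune and dividing cells were lower in the same libraries. All 19 T cell markers tested were below 0 (median -0.64), 13 of them at an unadjusted p under 0.05, and CD3D of the T cell receptor complex passed (edgeR FDR = 0.0476). They summed to 164, 144 and 149 CPM in heat-stressed fat and 236, 266 and 241 CPM in thermoneutral fat, so the groups did not overlap. B cell markers (12 tested, 9 below 0, median -1.77) summed to 278, 142 and 148 CPM in heat-stressed fat and 243, 353 and 285 CPM in thermoneutral fat. At an unadjusted p under 0.05, 8 B cell markers were lower and 0 higher, with 0 past the FDR in edgeR and 3 lower in DESeq2. Their sums overlapped, with heat stress 1 inside the thermoneutral range. Their mean log2 level relative to the thermoneutral mean, which weights each gene alike, did not overlap, at -0.43, -1.41 and -1.32 in heat stress and -0.30, 0.64 and -0.34 in thermoneutral fat. Proliferation markers (16 tested, all below 0, median -0.76) summed to 193, 179 and 152 CPM in heat-stressed fat and 239, 346 and 225 CPM in thermoneutral fat, with 0 past the FDR in edgeR, 11 lower at an unadjusted p under 0.05 and 9 lower in DESeq2. Their sums did not overlap. Macrophage and dendritic cell markers (17 tested, 14 below 0, median -0.38) summed to 5632, 3249 and 3759 CPM in heat-stressed fat and 5616, 5405 and 5436 CPM in thermoneutral fat, with 0 past the FDR in edgeR, 4 lower at an unadjusted p under 0.05 and 4 lower in DESeq2. The macrophage groups overlapped at heat stress 1 in the sum and in the mean log2 level, which was -0.039, -0.65 and -0.59 in heat stress and -0.076, -0.037 and 0.11 in thermoneutral fat. No gene of the table has a count of 0, and 0 of the markers tested were under 1 CPM in every library. The part of these cells in the lower ribosomal protein mRNA was not tested.

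Other tissue markers split. Endothelial markers (15 tested, 14 above 0, median 0.56) summed to 3983, 3597 and 4366 CPM in heat-stressed fat and 3871, 2926 and 3319 CPM in thermoneutral fat, with 0 past the FDR in edgeR, 10 higher at an unadjusted p under 0.05 and 9 higher in DESeq2. Their summed levels overlapped between groups and their mean log2 levels did not, at 0.51, 0.46 and 0.68 in heat stress and 0.20, -0.18 and -0.019 in thermoneutral fat. Adipocyte markers had 12 of 14 above 0 (median 0.75), with PLIN4, a lipid droplet coat protein, and FASN, the fatty acid synthase, past the FDR in edgeR at log2 fold changes of 2.88 ± 0.32 and 0.95 ± 0.11. At an unadjusted p under 0.05, 6 adipocyte markers were higher and 1 lower, and DESeq2 called 6 higher and 1 lower. The lower marker in edgeR was PNPLA2, a triglyceride lipase, at -1.22 ± 0.36. The adipocyte sums overlapped, while the mean log2 levels did not, at 1.26, 0.71 and 0.91 in heat stress and 0.34, -0.35 and 0.010 in thermoneutral fat. Preadipocyte and fibroblast markers (14 tested, 11 below 0, median -0.47) summed to 44222, 42781 and 36481 CPM in heat-stressed fat and 58852, 51864 and 62997 CPM in thermoneutral fat, with 0 past the FDR in edgeR, 8 lower and 1 higher at an unadjusted p under 0.05 and 6 lower and 1 higher in DESeq2. Neither these sums nor the mean log2 levels overlapped. The latter were -0.36, -0.26 and -0.63 in heat stress and -0.082, -0.038 and 0.12 in thermoneutral fat. Erythrocyte (8 tested), heterophil and thrombocyte (9), smooth muscle (10) and skeletal muscle markers (3) had medians of -1.03, -0.84, -0.47 and -0.79, with 0 of each past the FDR in edgeR. These 4 lists had 4, 2, 4 and 2 lower genes and 0, 0, 2 and 0 higher ones at an unadjusted p below 0.05. DESeq2 called 2, 2, 1 and 1 lower and 0, 0, 2 and 0 higher. Erythrocyte markers summed to 248, 406 and 396 CPM in heat-stressed fat and 498, 929 and 425 CPM in thermoneutral fat, and heterophil and thrombocyte markers to 251, 442 and 315 CPM in heat-stressed fat and 479.9, 790.0 and 614 CPM in thermoneutral fat, with no overlap of the sums in either. The mean log2 level of heterophil and thrombocyte markers did overlap, at -0.85, -0.36 and -0.81 in heat stress and -0.85, 1.08 and -0.23 in thermoneutral fat. Smooth muscle markers summed to 1306, 1687 and 1753 CPM in heat-stressed fat and 1671, 1677 and 1302 CPM in thermoneutral fat, with overlap, and the 3 skeletal muscle markers to 14.1, 25.4 and 20.1 CPM in heat-stressed fat and 34.3, 61.0 and 38.2 CPM in thermoneutral fat. The part of any of these cell types in the result was not tested.

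**Figure D5:**
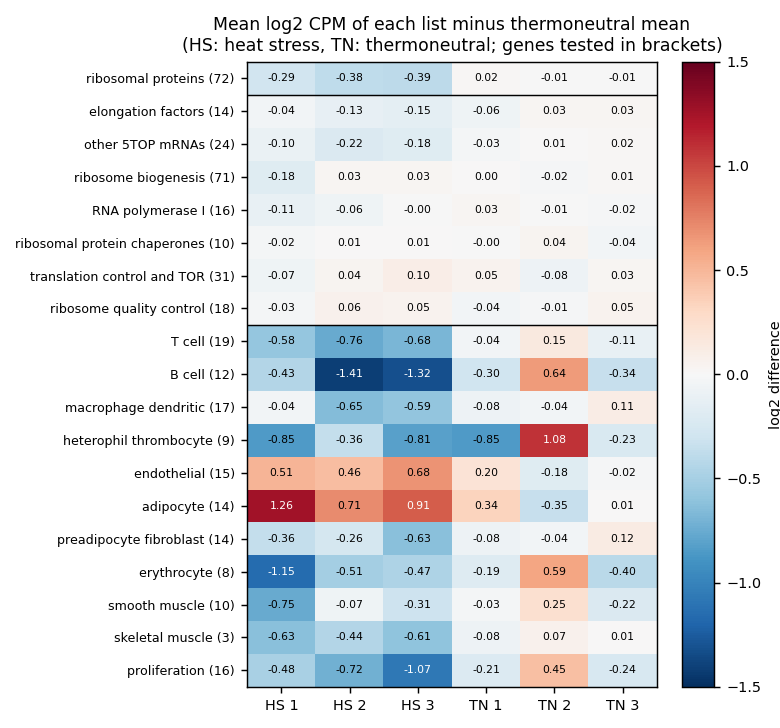
Mean log2(CPM + 0.5) of each list in each library minus its thermoneutral mean, as colour and printed value, with heat stress libraries (HS) left of thermoneutral ones (TN) and the genes tested in brackets. The ribosomal proteins read -0.29, -0.38 and -0.39 in heat stress, while ribosome biogenesis reads -0.18, 0.035 and 0.033, and the T cell list is low in all 3 heat stress libraries.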

How the data were processed

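The authors deposited whole-number counts of reads for each gene, unnormalized, with none below 1, and TPM values scaled for length and depth. Signed fold values (heat stress against thermoneutral) and adjusted p-values were read from the authors' deposited table. Per the submitters' processing notes the build was GRCg6a and the programs were StringTie 2.1.3b, HISAT2 2.1.0 and Bowtie2 2.3.4.1, with no role stated. Strand use in counting is not given in the sources used here, so overlapping, antisense and near-identical genes are uncertain. Another 42 per-library columns were left unused. No coordinates or sequences are printed, and the reference table (GRCg7b) served only to look up names: all 72 gene IDs matched, 69 with the same symbol.

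Counts were tested with edgeR 4.0.16 (R 4.3.3), quasi-likelihood F test, filterByExpr, TMM, group as the only term, and FDR over the 14743 genes tested. All 72 members passed the filter. The SE is the absolute log2 fold change over the square root of F. No pair of libraries within a group was a repeat of the same library (chi-square of counts over its degrees of freedom, 36.1 to 103). The model was tested on simulated data of 14632 genes, where 7.30% of the 137 calls were false, against the FDR threshold of 0.05 used here. It called 49% of the genes given a log2 fold change of 1. The share called at changes as small as those of most members was not worked out, so 0 members past the FDR does not show that they were unchanged. Library totals ran from 30673333 to 45163458, and the lowest member count was 381.

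The alternatives were other scalings and filters, DESeq2 1.42.0, limma 3.58.1 (voom, and log2(TPM + 1)), the library number as a block, and each library left out. Paralog pairs had exact permutation tests. Members and the 18 other lists (359 symbols, 315 tested) were chosen with earlier results of these data known. Members named by rule with a value in every library are the 6 of smallest p in each direction (1 existed above 0), the paralog pairs, the 3 highest and 3 lowest by TPM, and RPSA, RPLP0, RPLP1, RPLP2, RPS6, RPS27A and RPS19BP1. Of each process list the 2 of smallest p are named. Other genes named, among them RPL17, RPS28 and RPS15 with a value in every library, were picked after their values were seen. Some genes are not reported here by name.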

Additional observations from a re-analysis of the deposited data

How the results depend on the processing

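The 71 genes placed in a subunit by symbol stayed below 0 in 13 of the 15 other fits. RPL7L1 turned to 0.0025 on log2(TPM + 1) and RPS27L to 0.028 without heat stress 2, and RPS19BP1 turned to -0.022 without thermoneutral 3. Without 1 library RPS27 ranged from -0.57 to -0.18, RPL7L1 from -0.23 to -0.045, RPS27L from -0.25 to 0.028 and RPS19BP1 from -0.022 to 0.14. The family's median ran from -0.40 to -0.26. On log2(TPM + 1) in limma the median was -0.26, with -0.255 for the small and -0.27 for the large subunit, where all genes stood at 0.076. Members past the FDR numbered 53 in DESeq2, 5 with at least 1 CPM in all 6 libraries, 2 with library totals (RPL37 and RPL22L1), 1 on log2(TPM + 1) (RPL22L1), and 0 in each fit without 1 library. All genes called numbered 1364, 133, 99 and 202 in the same 4 alternatives, and 3 to 35 without 1 library: 10 without thermoneutral 2, 3 without thermoneutral 3, 6 without heat stress 2 and 3 without heat stress 3. Without thermoneutral 2 those were 5 higher, without heat stress 2 they were 3 higher, and in the other 2 fits 0 higher. Members at an unadjusted p under 0.05 numbered 43 on log2(TPM + 1), 57 with library totals, and 48 and 49 without heat stress 2 and 3. The share of all genes at that threshold was not worked out for these fits or the replicate block below. The family's share of counts differed by -0.673 percentage points, by -0.831 without the 10 most abundant genes, by -0.766 without mitochondrially encoded genes and by -1.58 as a share of TPM, and by -0.729 to -0.61 without 1 library. Members lower without overlap numbered 56 in TPM (6.95% of genes tested) and 63 in CPM of library totals (10.7%). Those higher without overlap numbered 0 in both, against 21.3% and 14.5% of genes tested. The log2 ratio of RPL22L1 to RPL22 differed by -0.609 to -0.505 without 1 library, that of RPL7L1 to RPL7 by 0.026 to 0.298 and that of RPS27L to RPS27 by 0.080 to 0.437. The cause of these moves was not tested. With the library number as a replicate block 95 genes were called, 0 of them members, and 58 members had an unadjusted p under 0.05. Same-numbered libraries deviated together at r = 0.078, 0.25 and 0.036 across genes, and not every library correlated best with its own number, so the numbers were not taken as pairs.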

Other observations

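3 small subunit genes, picked after their values were seen, had the widest spread among thermoneutral libraries in CPM: RPS27, RPS28 and RPS15, with coefficients of variation of 27.4%, 25.1% and 17.8%. RPS15, at the decoding site, had 184, 169 and 162 CPM in heat-stressed fat, against 246, 172 and 222 CPM in thermoneutral fat, so the groups overlapped at thermoneutral 2. In each of the 3 genes thermoneutral 1 was the highest library and thermoneutral 2 the lowest of its group, although thermoneutral 2 had the highest share of counts in ribosomal proteins as a whole, at 3.37%.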
